A study of Mus musculus with 42 samples.

Results

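Ly6a, Ly6c1, Ly6c2 and Ly6e are 4 genes of the Ly6 family. They were followed here in all 34 bulk RNA-Seq libraries of mouse uterine tissue-resident NK cells (trNK) and in single cells of the same series. They were taken by name from the 54353 genes listed in every library. Ly6a was picked because it was high where IL-21 had been added, so its values with and without IL-21 in culture are given as a description with no test. Ly6c1, Ly6c2 and Ly6e were added as members of its family, and 39 of 41 names in a wider Ly6 list were found in the bulk files.

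All cells came from C57BL/6 or otherwise labelled wild-type (WT) mice, and each bulk group held 2 libraries, which the labels number but do not tie to separate animals or cultures. Uterine trNK (CD45+NK1.1+NKp46+CD49a+CXCR6-) were sorted from virgin mice and at gestational days (gd) 6.5 and 8.5. At gd8.5 they were also sorted by CD55 and 4-1BB, the product of Tnfrsf9, into cells low for both (trNK-V), intermediate (trNK-D) and high (trNK-T). In 1 culture experiment, trNK were kept for 3 days without IL-21, with 20 ng/ml IL-21, or with IL-21 and 1 µM Stattic, an inhibitor of STAT3 (iSTAT3). By the study's account these were trNK-V cells of gd6.5 mice, and the medium of all 3 groups held IL-15. Live NK1.1+ cells were then collected. In a time course, trNK, by the study's account again trNK-V cells of gd6.5 mice, received 10 ng/ml IL-15 per the sample labels. They received it alone or with 20 ng/ml IL-21, and were collected at 0, 6, 24 and 72 h. The single cells were CD45+NK1.1+NKp46+ cells of virgin and gd8.5 uteri, which were pooled from several mice, tagged and mixed before capture, and nothing used here splits the cells by condition.

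Ly6 proteins are small cysteine-rich proteins with a 3-finger fold, and most are held at the cell surface by a glycosylphosphatidylinositol (GPI) anchor. Ly6a encodes Sca-1, a marker of blood stem cells and of activated lymphocytes that interferons induce, and Ly6c1 and Ly6c2 encode the Ly6C antigens of monocytes, memory T cells and mature NK cells. Ly6e encodes an interferon-inducible protein found on many lymphoid cells. IL-21 is a cytokine of the common gamma chain family that acts on NK cells largely through STAT3, and decidual NK cells are the main lymphocytes of the early implantation site.

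The 4 genes lay within a single cluster on chromosome 15 of mm10, as the count files place them. Ly6e (ENSMUSG00000022587, chr15:74955051-74959905) was on the plus strand, and Ly6a (ENSMUSG00000075602, chr15:74994877-74998031), Ly6c1 (ENSMUSG00000079018, chr15:75044018-75048830) and Ly6c2 (ENSMUSG00000022584, chr15:75108158-75111970) were on the minus strand. Their transcripts were alike. The longest Ly6c1 and Ly6c2 transcripts were identical at 97.6% of 822 aligned bases, and 39 windows of 150 bases occurred in both, which were 5.612% of those in Ly6c1 and 5.795% of those in Ly6c2. Reads from these stretches cannot be assigned to 1 of the pair, and counts for both are uncertain to that extent. Ly6a shared no window of 150 bases with Ly6c1, Ly6c2 or Ly6e. Of shorter windows of 50 bases, 36.7% in Ly6c1, 33.0% in Ly6c2 and 8.17% in Ly6a also occurred in a transcript of another Ly6 gene, and none in Ly6e did, so the share of uncertain reads is larger for shorter matches and touches Ly6a too.

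The start regions of the Ly6c1 and Ly6c2 genes are shown, since the reference used held none for Ly6a or Ly6e. By transcript these are the most alike pair, yet their levels in trNK differed widely. Each sequence runs 5′ to 3′ on the minus strand of GRCm38.p6 from 250 bases before to 50 bases after the first of 2 starts that RefSeq lists for each gene, at chr15:75048788-75049087 for Ly6c1 and chr15:75111922-75112221 for Ly6c2, and capitals mark the longest run of 20 bases that both hold.
Ly6c1: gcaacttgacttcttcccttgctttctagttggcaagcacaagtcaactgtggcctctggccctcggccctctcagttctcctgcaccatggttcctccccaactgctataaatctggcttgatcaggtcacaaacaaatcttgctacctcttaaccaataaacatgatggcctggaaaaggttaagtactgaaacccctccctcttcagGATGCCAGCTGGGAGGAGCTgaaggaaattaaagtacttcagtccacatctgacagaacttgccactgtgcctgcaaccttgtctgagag
Ly6c2: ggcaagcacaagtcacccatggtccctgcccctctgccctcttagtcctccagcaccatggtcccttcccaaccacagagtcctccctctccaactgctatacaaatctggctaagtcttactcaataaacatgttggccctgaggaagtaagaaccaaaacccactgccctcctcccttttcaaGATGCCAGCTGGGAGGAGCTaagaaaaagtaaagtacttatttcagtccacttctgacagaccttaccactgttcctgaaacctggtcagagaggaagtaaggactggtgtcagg
They were identical at 208 of 266 aligned positions (78.2%). Neither held the letters TTCNNNGAA, the GAS motif of STAT dimers, on either strand, nor did the windows at the second starts. Among all 32851 windows of this length in the same table, 8.298% held it. Ly6a and Ly6e were not searched for it.

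Libraries held 11862089 to 66468883 counts, and levels are given as RPKM, counts scaled by gene length and by the total of the library. Tests were made with edgeR's quasi-likelihood test and Benjamini-Hochberg adjustment over all genes that exceeded 10 RPKM in both libraries of any group, and a gene was called at an adjusted p under 0.05 and more than 2-fold. The 2 virgin libraries stood apart from each other: Gzmb, a cytotoxic granule protease, was at 172.6 RPKM in replicate 1 and 8742 in replicate 2, and Tnfrsf9 was at 123.1 and 750.9. The 2 libraries at 72 h without IL-21 had 10724 and 11665 genes detected and 8.44% and 11.8% of counts on mitochondrial genes, against 12000 to 15679 genes in the other libraries of that experiment. Ncr1, the NKp46 gene that defines these cells, was at 46.8 RPKM or more throughout.

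**Figure D1:**
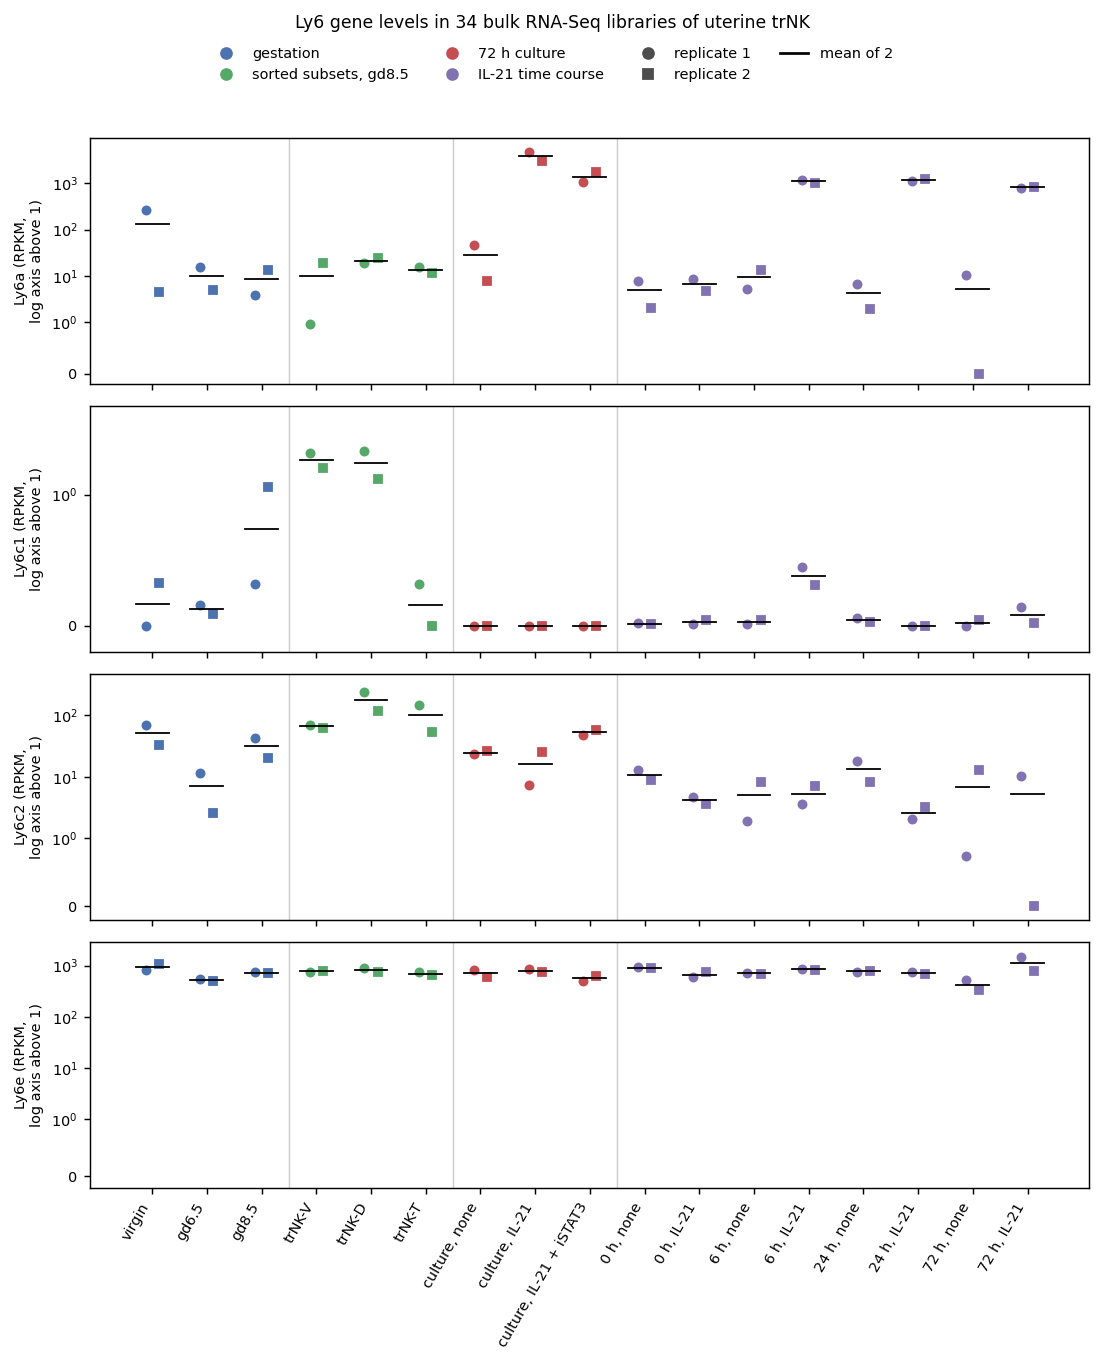
Level of each gene in RPKM (vertical axes, logarithmic above 1) in all 34 bulk libraries, grouped by experiment; circles are replicate 1, squares replicate 2 and bars the mean of 2. Ly6a stood between 796.7 and 4722 RPKM in the IL-21 groups from 6 h on, Ly6c1 stayed under 2.33, Ly6c2 was highest in the gd8.5 subsets and Ly6e lay between 333.4 and 1456 throughout.

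Ly6a was low in most trNK without IL-21. Over the 22 libraries that had received no IL-21 it ranged from 0 to 265.7 RPKM with a median of 9.12, and 11 of them were over 10. During gestation the level was 265.7 and 4.43 RPKM in virgin trNK, 15.3 and 4.96 in the gd6.5 libraries, and 3.90 and 13.2 in those of gd8.5. A single virgin library, replicate 1, was therefore far above the other 5, and the virgin and pregnant groups overlapped. That library held 26.0 RPKM in summed dendritic-cell markers and 5.24 in stromal markers, against 2.82 and 0.153 in replicate 2. Its B-cell markers summed to 469.9 RPKM, against 224.1 in replicate 2 and 140.5 to 247 in the 4 pregnant libraries. In replicate 1 and 2, 3 and 4 of 6 dendritic-cell markers, 1 and 4 of 7 stromal markers and 4 and 5 of 6 B-cell markers were at 0, and their part in the Ly6a level was not tested. Ly6a did not pass the expression filter in this experiment. Under edgeR's own filter on low counts its difference between gd6.5 and virgin was a log2 fold change of -3.69 ± 1.58 (SE, edgeR adjusted p = 0.296), and that between gd8.5 and virgin was -3.92 ± 1.60 (edgeR adjusted p = 0.482).

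Among the gd8.5 subsets Ly6a stayed low. It was at 0.968 and 18.7 RPKM in trNK-V, 18.6 and 24.5 in trNK-D, and 15.3 and 11.8 in trNK-T. The trNK-V replicate 1 library, with 18 counts, was the lowest of all 6. The trNK-D against trNK-V difference was 1.14 ± 1.05 on the log2 scale (SE, edgeR adjusted p = 0.56), that of trNK-T against trNK-V was 0.46 ± 1.05 (edgeR adjusted p = 0.746), and that of trNK-T against trNK-D was -0.68 ± 1.04 (edgeR adjusted p = 0.74). None was called, where 0.32%, 21.2% and 1.75% of the 4683 genes tested were. Without the second trNK-V library the trNK-T against trNK-V difference became 3.81 (edgeR adjusted p = 0.0251), and without the first it became -0.47. In the same way the trNK-D against trNK-V difference became 4.49 (edgeR adjusted p = 0.094) and 0.21.

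With IL-21, Ly6a joined the most abundant transcripts of the cells. In the 3-day culture it was at 47.6 and 7.88 RPKM without IL-21, 4722 and 2985 with IL-21, and 1042 and 1759 with IL-21 and iSTAT3. Every IL-21 library was above every control library, the IL-21 libraries were above those with iSTAT3, and Ly6a ranked 13 and 14 among all genes detected in the IL-21 libraries. By the ratio of group means it was 139-fold higher with IL-21 than without, and the level with iSTAT3 was 0.363 of that with IL-21 alone and still 50.5-fold that of the control. With single libraries left out, the log2 difference ran from 6.55 to 9.12 for IL-21 against none, from -1.81 to -0.92 for iSTAT3 against IL-21 and from 5.18 to 7.75 for iSTAT3 against none. These values chose the gene and carry no test. Summed macrophage markers, of which 7 or 8 of 9 were at 0, were 20.7 and 18.9 RPKM without IL-21, 28.9 and 22.2 with IL-21, and 21.1 and 19.9 with iSTAT3. Those of B cells, of which 4 of 6 were at 0, were 136 and 256.6, 46.4 and 120.1, and 65.3 and 53.8. Ncr1 was at 472.7 and 358.4 RPKM without IL-21, 146.1 and 156 with IL-21 and 46.8 and 77.3 with iSTAT3, and the summed markers listed for ILC1, of which 0 to 3 of 9 were at 0, were 1291 and 1118, 385.5 and 480.2, and 241.7 and 316.2. The part of these in the Ly6a difference was not tested. In the comparisons of IL-21 against none, iSTAT3 against IL-21 and iSTAT3 against none, 0.289%, 2.96% and 4.74% of the 4158 genes tested were called, and 10.7% (higher), 28.9% (lower) and 16.5% (higher) had no overlap between libraries in the direction of Ly6a.

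In the time course Ly6a was already high with IL-21 at 6 h. At 0 h it was 7.77 and 2.09 RPKM without and 8.81 and 4.75 with IL-21, and these overlapped. At 6 h it was 5.26 and 13.4 without and 1187 and 1009 with IL-21. At 24 h it was 6.68 and 1.96 without and 1103 and 1259 with IL-21. The IL-21 libraries at 6 and 24 h were alike, and all were far above any library without it. At 72 h it was 10.4 and 0 RPKM without and 796.7 and 840.6 with IL-21, a ratio of means of 158. At 6, 24 and 72 h, 30.3%, 39.8% and 21.6% of genes were higher in both IL-21 libraries than in both others. The library at 0 held no Ly6a count, so the ratio rests on replicate 1 of that group. On the log2 scale the IL-21 difference was 6.82 at 6 h, 8.01 at 24 h and 7.38 at 72 h. The last of these was 6.36 without replicate 2 of the 72 h controls and 7.62 without replicate 1 with IL-21. In both culture experiments Ly6a passed the expression filter only through groups with IL-21. The first culture and the time course were separate experiments, and their levels are not set on a common scale.

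**Figure D2:**
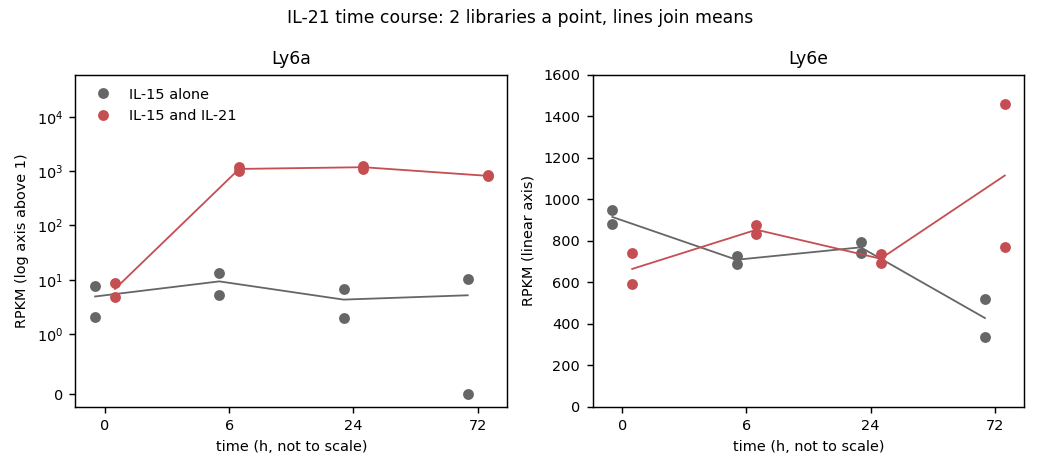
RPKM of Ly6a (left, axis logarithmic above 1) and Ly6e (right, linear axis from 0) by hours in culture, in cells with IL-15 alone (grey) or IL-15 and IL-21 (red); points are single libraries and lines join the mean of 2. Ly6a with IL-21 lay between 796.7 and 1259 RPKM from 6 h on, and Ly6e separated most at 72 h, where it was 519.8 and 333.4 without and 1456 and 770.7 with IL-21.

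Ly6c1 was low in every trNK group. It reached at most 2.32 RPKM, or 81 counts, and 11 of 34 libraries, among them all 6 of the 3-day culture, held no count. The highest values were 2.24 and 1.70 RPKM in trNK-V and 2.32 and 1.36 in trNK-D, against 0.317 and 0 in trNK-T. In the time course, 6 h with IL-21 gave 46 and 18 counts where no other library had over 9, at a time when 30.3% of genes were higher without overlap, and under edgeR's own filter the difference was 3.66 ± 2.19 on the log2 scale (SE, edgeR adjusted p = 1). Ly6c1 passed the filter in no experiment and was not tested there. Under edgeR's own filter its trNK-T against trNK-V difference was -3.40 ± 1.56 on the log2 scale (SE, edgeR adjusted p = 0.217).

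Ly6c2, its near-identical neighbour, was present at moderate levels, and none of its differences over gestation was called. Virgin trNK held 68.5 and 33.4 RPKM, the gd6.5 libraries 11.5 and 2.54, and the gd8.5 libraries 43.0 and 20.1. Both gd6.5 libraries were below all others, and the virgin and gd8.5 libraries overlapped. The gd6.5 against virgin difference was -2.94 ± 0.78 on the log2 scale (SE, edgeR adjusted p = 0.0613) and that of gd8.5 against gd6.5 was 2.18 ± 0.76 (edgeR adjusted p = 0.158), so neither was called. In those comparisons 6.17% and 0% of the 4504 genes tested were called, and 24.1% were lower and 32.9% higher with no overlap between libraries. For gd8.5 against gd6.5, where edgeR called 0 genes, 23.8% had an unadjusted p under 0.05 and DESeq2 called 221. The first difference passed under DESeq2 (-2.95, DESeq2 adjusted p = 0.000175) and without virgin replicate 2 (-3.36, edgeR adjusted p = 0.0156). The gd8.5 against virgin difference was -0.76 ± 0.73 (edgeR adjusted p = 0.643), where 0.422% of genes were called.

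Among the sorted subsets Ly6c2 was at 70.1 and 62.6 RPKM in trNK-V, 237.2 and 116.5 in trNK-D, and 147.6 and 54.4 in trNK-T. Both trNK-D libraries exceeded both trNK-V libraries, as did 25.9% of genes tested, while trNK-T overlapped both other groups. The trNK-D against trNK-V difference was 1.42 ± 0.50 on the log2 scale (SE, edgeR adjusted p = 0.206), that of trNK-T against trNK-V was 0.61 ± 0.49 (edgeR adjusted p = 0.356) and that of trNK-T against trNK-D was -0.81 ± 0.49 (edgeR adjusted p = 0.367). DESeq2 called the first of these (1.41, DESeq2 adjusted p = 0.0349). Summed markers of conventional NK cells, a list that includes Ncr1 and Eomes, were 2264 and 2768 RPKM in trNK-V, 1874 and 1574 in trNK-D, and 1176 and 1040 in trNK-T. Summed macrophage markers were 56.9 and 385.3 RPKM in trNK-V, 277.3 and 390.8 in trNK-D, and 20.4 and 17.0 in trNK-T, and dendritic-cell markers 269.3 and 104.3, 315 and 83.8, and 5.31 and 2.68. Of the 9 macrophage markers 0 to 2 were at 0 in trNK-V and trNK-D libraries and 1 and 4 in trNK-T, and of the 6 dendritic-cell markers 2 to 4 were at 0 throughout. Their part in the Ly6a and Ly6c2 levels was not tested. In bulk libraries fewer cells of a type and less RNA per cell cannot be told apart.

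In culture, Ly6c2 did not follow Ly6a. It was at 23.8 and 25.8 RPKM without IL-21, 7.22 and 25.4 with IL-21, and 48.2 and 57.4 with IL-21 and iSTAT3. The groups without iSTAT3 overlapped, and both iSTAT3 libraries were above the other 4. The difference with IL-21 was -0.45 ± 0.53 on the log2 scale (SE, edgeR adjusted p = 0.897), that of iSTAT3 against IL-21 was 1.83 ± 0.54 (edgeR adjusted p = 0.127) and that of iSTAT3 against none was 1.38 ± 0.53 (edgeR adjusted p = 0.184). None was called, and 20% and 16.5% of genes were higher without overlap in the latter comparisons. DESeq2 called iSTAT3 against IL-21 (1.82, DESeq2 adjusted p = 0.0137). In the time course Ly6c2 lay between 0 and 18.2 RPKM with a median of 5.84 and did not pass the filter. Its highest library was 24 h without IL-21 (18.2 and 8.31 RPKM, against 2.05 and 3.16 with IL-21), and at 0 h it was at 12.7 and 9.01 without and 4.66 and 3.62 with IL-21. Both IL-21 groups were lower without overlap, as were 27.4% and 19.7% of genes tested at those times, and under edgeR's own filter the differences were -2.44 ± 1.78 on the log2 scale (SE, edgeR adjusted p = 0.966) and -1.38 ± 1.72 (edgeR adjusted p = 1). At 72 h the libraries of each group lay far apart (0.741 and 13.1 without and 10.3 and 0 with IL-21).

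Ly6e was the most evenly expressed of the 4 genes. It lay between 333.4 and 1456 RPKM in all 34 libraries, and it ranked between 53 and 254 among the genes detected in each. It was lower at gd6.5, with 537.8 and 489 RPKM, than in virgin trNK, with 828.7 and 1069, and gd8.5 was between at 740.9 and 719.4. These 3 groups did not overlap, and 18.1% of genes were lower at gd8.5 than in virgin trNK without overlap. The gd6.5 against virgin difference passed the adjusted p but not the fold limit (log2 fold change -0.97 ± 0.18, SE, 1.96-fold, edgeR adjusted p = 0.0311). It ran from -1.14 to -0.78 over left-out libraries, and its adjusted p was not under 0.05 in every alternative. In this comparison edgeR called 278 genes, but 2 with the replicate number as a block and 0 with only these groups in the fit. The differences of gd8.5 against virgin (-0.44, edgeR adjusted p = 0.342) and against gd6.5 (0.53, edgeR adjusted p = 0.149) did not pass. Among the subsets Ly6e was at 743.8 and 800.6 RPKM in trNK-V, 891.1 and 754 in trNK-D, and 756.6 and 641.8 in trNK-T, with adjusted p of 0.414 or more by edgeR's test in each comparison.

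With IL-21, Ly6e differed by less than 2-fold in the 3-day culture and up to 24 h of the time course. In the 3-day culture it was at 829.6 and 590.8 RPKM without IL-21, 859.1 and 733.1 with IL-21, and 508.3 and 616.4 with IL-21 and iSTAT3. The difference with IL-21 was 0.36 on the log2 scale (edgeR adjusted p = 0.837) and that of iSTAT3 against IL-21 was -0.40 ± 0.31 (SE, edgeR adjusted p = 0.547). In the time course it was at 946.6 and 880.7 RPKM without and 588.6 and 737.8 with IL-21 at 0 h, 727.5 and 687.2 against 874.5 and 829.6 at 6 h, and 741.9 and 792.8 against 733.2 and 691.3 at 24 h. The libraries with IL-21 were thus both lower at 0 h and 24 h and both higher at 6 h, where 19.7%, 27.4% and 30.3% of genes behaved likewise, and no difference passed (edgeR adjusted p from 0.712 to 1). Genes called at those times were 0%, 1.66% and 1.97% of 3503, and at 0 h, where neither edgeR nor DESeq2 called any (0 each), 3.14% had an unadjusted p under 0.05.

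At 72 h Ly6e was higher with IL-21 than without. It was at 519.8 and 333.4 RPKM without and 1456 and 770.7 with IL-21, a log2 fold change of 1.28 ± 0.19 (SE, edgeR adjusted p = 0.00194), and 8.08% of genes tested were called and 21.6% were higher without overlap. Over the same 72 h the libraries without IL-21 had fallen by 0.70 ± 0.19 on the log2 scale from 0 h (SE, edgeR adjusted p = 0.0176), less than 2-fold, in a comparison where 25.2% of genes were called and 50% were lower without overlap. At 72 h with IL-21, replicate 1 was above every other library of the time course. Replicate 2 (770.7 RPKM) was below 0 h without IL-21 (946.6 and 880.7) and 6 h with IL-21 (874.5 and 829.6). It was above the IL-21 libraries at 0 h (588.6 and 737.8) and 24 h (733.2 and 691.3). The IL-21 difference at 72 h exceeded that at 6 h by 1.05 ± 0.27 (SE, edgeR adjusted p = 0.0521). This excess was not called, where 4.17% of genes were. Fitted on the 72 h libraries alone, the 72 h difference was of the same size and not significant (1.28, edgeR adjusted p = 0.703). Summed markers of dividing cells moved with it, at 30.4 and 0.556 RPKM without and 100.2 and 50.1 with IL-21, as did those of macrophages, of which 7 or 8 of 9 were at 0, at 9.19 and 0.00754 against 67.9 and 27.9. The 72 h libraries without IL-21 were those with few genes detected and a high mitochondrial share. The part of any of these in the Ly6e difference was not tested.

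**Figure D3:**
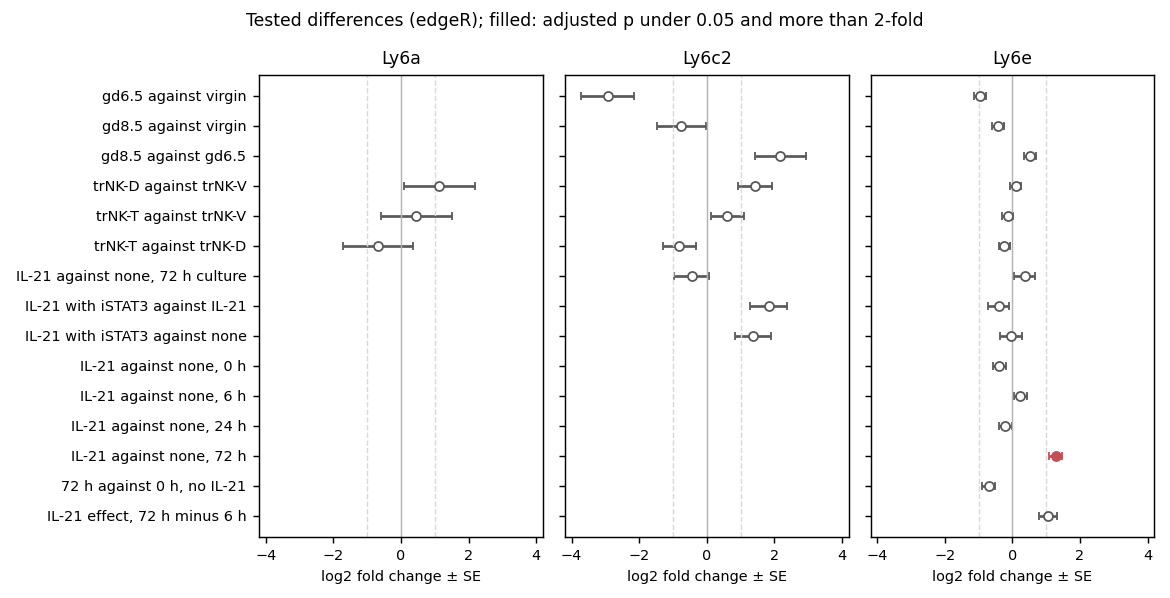
Log2 fold change with its standard error (horizontal axes) of Ly6a, Ly6c2 and Ly6e in each comparison for which a test was made, from edgeR fits over all genes; dashed lines mark 2-fold, filled symbols an adjusted p under 0.05 and more than 2-fold. Ly6e at 72 h (1.28) is the filled point, and the largest open one is Ly6c2 at gd6.5 against virgin (-2.94).

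The rest of the family was low in trNK. Of 35 other listed Ly6 genes found in the bulk files, 30 never exceeded 10 RPKM, and 7 had no count in any library. The 5 that did were Ly6g5b with a highest level of 33.6 RPKM, Ly6d with 22.9, Cd59a (which restrains complement) with 19.6, Ly6i with 17.4 and Plaur (the urokinase receptor) with 10.9. Cd59a and Ly6g5b were tested in the subsets and Ly6g5b in the time course, and neither was called. In the time course Ly6g5b was at 22.1 and 9.07 RPKM without and 1.60 and 1.03 with IL-21 at 6 h (-3.57 ± 1.69 on the log2 scale, SE, edgeR adjusted p = 0.439), and at 0 and 20.1 without and 33.6 and 29.1 with IL-21 at 72 h (1.45 ± 1.55, edgeR adjusted p = 0.611). In the subsets Cd59a differed by 3.03 ± 1.07 on the log2 scale between trNK-T and trNK-V (SE, edgeR adjusted p = 0.0651) and Ly6g5b by 2.02 ± 0.39 between trNK-D and trNK-V (SE, edgeR adjusted p = 0.0973).

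Interferon-induced genes were read beside the members, since Ly6a and Ly6e are known to belong to them. Of 33 tested at gd6.5 against virgin, 14 fell, where 3% of all genes did, and without either gd6.5 library 0 of 33 were called, as was the case for all genes. Their median difference was -1.09 on the log2 scale, with -0.02 for every gene tested. Tgtp2, an interferon-induced GTPase, fell by 3.69 on the log2 scale and Ifitm3, a restriction factor, had the highest value (2.11, not called). Between trNK-T and trNK-V, where the summed macrophage and dendritic-cell markers given above were also lower in trNK-T, 18 of 32 fell, where 13.1% of all genes did, and 1, Ifitm3 (1.15, edgeR adjusted p = 0.0317), rose. Those that fell numbered 9 without trNK-T replicate 2 and 12 without trNK-V replicate 2, and Ifitm3 was called only without trNK-V replicate 1 among the 4 fits that left out a library. Of the markers tested, 2 of 3 for macrophages and 1 of 1 for dendritic cells (H2-Ab1, -5.88) fell too, and their part was not tested. Ly6e differed by -0.97 and -0.14 in these comparisons. In the 3-day culture with IL-21 the median over 31 genes was 0.05 on the log2 scale, with -0.02 for every gene tested, and the highest value was that of Ifitm3 (4.65, not called). At both 6 h and 24 h with IL-21, 2 of 19 fell, Rtp4 and Tgtp2, where 1.37% and 1.31% of all genes did, and without any 1 of the libraries compared neither was called. At 72 h, where Ly6e was higher with IL-21, 13 of 19 had a positive value. The median was 0.43, with 0.05 for every gene tested, and Ifitm3 had the highest value (4.53, edgeR adjusted p = 0.0624, not called).

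Genes known to respond to STAT3 were followed likewise. In the 3-day culture 2 of 13 tested rose, Gzmb (3.70 ± 0.35 on the log2 scale, SE, edgeR adjusted p = 0.0136) and Bcl3, a partner of NF-kB (3.29 ± 0.46, edgeR adjusted p = 0.0419), where 0.289% of all genes did. Without either control library neither was called, and without either IL-21 library Gzmb alone was. The median was 1.81, with -0.02 for every gene tested. The most changed was Il10, a regulatory cytokine, which held no count in either control library. It was at 104.8 and 79 RPKM with IL-21, then 0 and 1.36 with iSTAT3. With iSTAT3 against none, 10 of 13 had a positive value, and the median was 1.36, with -0.02 for every gene tested. In that comparison 1 was called higher and 1 lower, where 2.93% and 1.8% of all genes were. With iSTAT3 against IL-21, 1 of 13, Ccnd2, a cyclin of the early cell cycle, fell by 1.81 (edgeR adjusted p = 0.0429), where 1.15% of all genes did, and it was not called without any 1 of these libraries. Of 6 tested in the time course, Gzmb rose at 6, 24 and 72 h and Bcl3 at 72 h, where 0.599%, 0.343% and 6.57% of all genes rose. The Gzmb calls at 6 h and 24 h were lost without any 1 of the libraries compared and that at 72 h was kept, while Bcl3 was not called without replicate 2 of the 72 h controls or replicate 1 with IL-21. In trNK-T against trNK-V, 4 of 11 fell (Ccnd2, Il21r, Pim2 and Junb) and Gzmb rose, where 13.1% and 8.05% of all genes did, and 2 fell without trNK-V replicate 2. Il21r, the receptor itself, lay between 0.434 and 3.39 RPKM in the time course and between 3.55 and 63.1 in the 3-day culture. Of 30 listed genes for making the GPI anchor, 10 were tested at gd6.5 against virgin and 1, Pigp, fell (-1.03, edgeR adjusted p = 0.0344), where 3% of all genes did, and 1 of 11, Pigl, rose in trNK-T against trNK-V (1.63, edgeR adjusted p = 0.0351), where 8.05% of all genes did. Pigp was not called without either gd6.5 library or virgin replicate 2, and Pigl was called only without trNK-V replicate 2 among the fits that left out a library.

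The genes whose pattern was most like each member were found by Pearson correlation of log2(RPKM + 1), centred within each experiment, over the 34 libraries among 2662 genes expressed in all 4 experiments. The libraries of a group and of an experiment are not independent points, and the values are a description. Those of Ly6a include the IL-21 libraries whose high levels chose the gene, so they are no separate evidence. Ly6a was most like Ifng, the gene of interferon gamma (r = 0.725), then Gngt2 (0.707), Hsd17b10 (0.675), Gm33424 (0.667) and Icos, a costimulatory receptor (0.667). In the 16 time-course libraries alone, Muc1 led with 0.895 and Ifng had 0.734. Ly6e was most like Il2rg, the common gamma chain that IL-15 and IL-21 receptors share (0.802), then Cd82 (0.775), Tmem173 (0.773), Gstp3 (0.767) and Cdk5 (0.761). Ly6c2 was most like Dnajc4 (0.682), with Rbm7 next at 0.503, though with 0.1 in place of 1 added to the RPKM Rab29 followed Dnajc4 (0.675) at 0.659. Ly6c1 was most like Rpain (0.643).

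In the single cells the 4 genes differed by cell class. The 2 deposited tables held the same 15175 cell labels and no shared gene. The labels give 1 table to virgin and 1 to gd8.5 uteri, but each cell has part of its genes in both, so they were joined and no condition was compared. After joining, 4338 cells, with a median of 1607 unique molecular identifiers (UMIs), were kept within the study's limits. The same limits set on genes per cell in place of UMIs kept 8907. The 4338 cells gave 14 clusters, clustered without any Ly6 gene, of which 5 stayed unnamed, and the thresholds for naming were set after the data were seen. Cells are not replicates, so values are the pooled UMIs of a gene scaled to all UMIs of the class (CPM) with exact Poisson intervals at 95%, which cover counting error only. The 62 erythroid-like cells, which should lack lymphocyte transcripts, gave the background. It is a rough one, since 30.65% of them held a Ptprc UMI and Ncr1 was at 151.5 CPM.

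Ly6a could not be told from the erythroid-like level in trNK-like cells and was high in several other classes. It was at 27.1 CPM (20.1 to 35.7) in 1105 trNK-like cells, with a UMI in 3.89% of them, and at 30.9 CPM in 841 cNK-like (conventional NK) cells, with a UMI in 4.28%. Erythroid-like cells had 17.8 CPM (2.16 to 64.4), from 2 UMIs, and a UMI in 3.23%. Median depths were 1731 UMIs there and 1694 in trNK-like cells. The NK values could not be told from this level, which is itself uncertain. It was at 541 CPM in T-like, 901.2 in stromal-like, 1162 in macrophage-like and 1676 in B-like cells, where 77.1% of 231 cells had a UMI. An unnamed cluster of 379 cells led by Tcrg-C4, a T-cell receptor gamma gene, and Cxcr6 held 291.7 CPM. Another unnamed cluster, of 307 cells, was led by Gzmf and Gzmd with Spp1 in its top 10 genes, and held 26.9 CPM of Ly6a. Eomes was found in 38.1% and Itga1 in 29.0% of its cells, against 46.6% and 31.1% of trNK-like cells. The trNK-like class may therefore leave out part of the trNK. Each cluster given the trNK-like name had 4 of 8 listed trNK markers higher. Klra8, listed as a marker of conventional NK cells, was among the top 10 genes of each. The macrophage-like level of Ly6a was 42.9 times the trNK-like one, and 94.1 times with no upper UMI limit. The macrophage-like interval (1097 to 1229 CPM) lay above those of both trNK-like and erythroid-like cells. With a denominator that could not be told from the erythroid-like level, the ratio does not measure the size of that difference. With every cell thinned to 500 UMIs, 1.09% of trNK-like, 1.61% of erythroid-like and 31.5% of macrophage-like cells held a UMI.

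Ly6c2 was higher in cNK-like than in trNK-like cells, and Ly6e was the reverse. Ly6c2 was at 1618 CPM (1551 to 1687) in cNK-like and 118 CPM (102.8 to 134.7) in trNK-like cells, and at 115.8 CPM (61.7 to 198.1) in erythroid-like cells. A UMI was found in 40.7% and 7.33% of cells, against 14.5% in erythroid-like cells, so the trNK-like share was not above the erythroid-like one. Stromal-like cells were lower, at 32.2 CPM (11.8 to 70.1) with a UMI in 4.545%. Whether trNK-like cells exceed background thus depends on the class taken for it. Ly6e was at 2026 CPM (1962 to 2092) in trNK-like and 706.8 CPM (662.8 to 752.9) in cNK-like cells, a ratio of 2.87 (2.67 to 3.08), and 383.2 CPM (277.3 to 516.1) in erythroid-like cells. The unnamed cluster led by Gzmf, which the trNK-like class leaves out, held less Ly6e, at 1255 CPM (1157 to 1359), and 132.5 CPM of Ly6c2. An unnamed cluster of 246 cells with Mki67 in its top 10 genes held 1207 CPM of Ly6e. After thinning, 58.2% of trNK-like, 26.4% of cNK-like and 17.7% of erythroid-like cells held a Ly6e UMI. Over all kept cells Ly6e, with a UMI in 79.6%, was the gene of rank 49 among 22984.

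Ly6c1 was seen mostly outside the NK classes. It was at 199.1 CPM in T-like cells, where 18.2% of 192 had a UMI, and 85.8 CPM in stromal-like cells, against 13.2 CPM in cNK-like cells and 3 UMIs in all trNK-like cells. No UMI was found in 231 B-like cells, which allows a share of cells with a UMI of up to 1.30% (3 counts of the total) and says nothing on cells that express it. The Ly6C pair had different orders over the classes, with Ly6c2 at 32.2 CPM in stromal-like and 784.7 CPM in T-like cells. Of the T-like cells, 35 held Ly6c1, 49 held Ly6c2 and 8 held both. An unnamed cluster of 76 cells led by Ace and Ear2 had the highest Ly6e (6008 CPM) and Ly6c2 (1938 CPM), together with Ly6i (1476 CPM) and Plaur (445.9 CPM), and Ly6d was highest in B-like cells (1388 CPM).

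**Figure D4:**
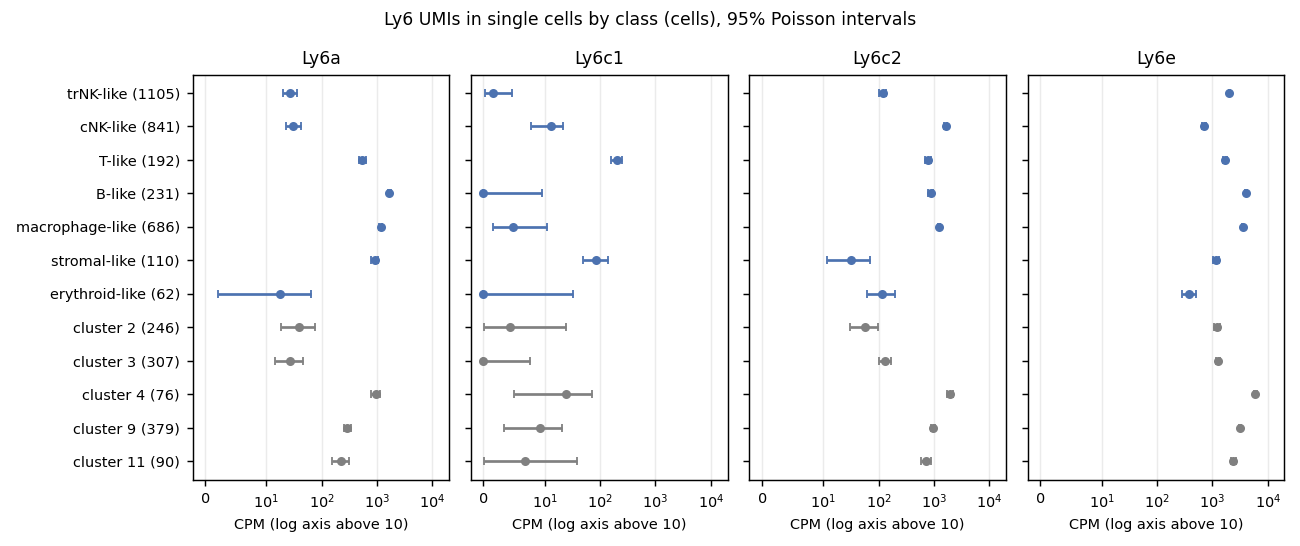
Level of each gene in CPM (horizontal axes, logarithmic above 10) in 12 classes or clusters of single cells, with the number of cells in parentheses; points are pooled levels and bars 95% Poisson intervals, and unnamed clusters are grey. Ly6a lies near 30 CPM in trNK-like and cNK-like cells and at 1676 in B-like cells, and Ly6c2 separates cNK-like (1618) from trNK-like cells (118).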

How the data were processed

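Gene counts of 34 bulk libraries and UMI counts of single cells were analysed, and 6 ATAC libraries were not analysed here. The authors aligned bulk reads to mm10 with HISAT2 2.1.0 and deposited whole-number counts per gene with gene lengths, from which RPKM was computed here. The submitters' processing notes name featureCounts and the study's methods RSEM. Whether counting used strand is not given in the sources used here. Single-cell UMI counts were made by the authors with BD's own Rhapsody software, with GRCm39 as reference. The 4 genes and all gene lists were chosen with earlier results of these data known. Genes were kept where some group had both its libraries over 10 RPKM, and were tested with edgeR 4.0.16 (R 4.3.3), 1 quasi-likelihood fit with TMM factors over all groups of an experiment, and Benjamini-Hochberg adjustment. The fit was tested on simulated data.

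The p-values measure only the spread between these libraries, which may be technical. Alternatives were RLE size factors, edgeR's own filter, no filter, DESeq2 1.42.0, limma voom 3.58.1 (the study used limma), only the groups compared, each library left out and the replicate number as a block.

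Cells with over 200 and under 2500 UMIs and under 10% mitochondrial UMIs were kept (8849 of 15175 had 2500 or more), and were clustered with scanpy 1.11.5 (2000 variable genes, 20 components, 20 neighbours, Leiden resolution 0.8) without the Ly6 genes. No doublet caller was run. A cluster was named where at least 3 markers fixed for a class were higher by 0.5 on the log2 scale with a UMI in 5% of its cells, at least 1 was among its top 10 genes and no T-cell receptor gene led a class other than T cells. Shares with a UMI were also taken after thinning to 500 UMIs per cell. Named genes were the 4 members, the 5 genes most correlated with each, other Ly6 genes above the filter, and the extremes of each list, while genes called among few were named after their values were seen. RefSeq promoters were found for Ly6c1 and Ly6c2, and GENCODE vM21 gave transcripts.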

Additional observations from a re-analysis of the deposited data

Results flagged for a closer look

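In the time course the Ly6e libraries with and without IL-21 did not overlap at 0, 6, 24 or 72 h, in directions that differed. Both IL-21 libraries were below both libraries without IL-21 at 0 h and 24 h, and both were above them at 6 h and 72 h, as were 19.7% and 27.4% (lower) and 30.3% and 21.6% (higher) of all genes tested. By edgeR's test the differences at 0, 6 and 24 h did not pass (adjusted p from 0.712 to 1). The log2 difference with IL-21 at 6 h exceeded that at 0 h by 0.63 and that at 24 h by 0.44, and the difference at 72 h exceeded that at 0 h by 1.68 and that at 24 h by 1.49. These 4 differences between times were not tested.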

How the results depend on the processing

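Of 301 recalculations of the 27 tested differences of the members, 273 kept their direction and their side of the thresholds. Only the Ly6e difference with IL-21 at 72 h was called among the 27, so for the others keeping the side means staying uncalled. Ly6c2 was the gene most open to the method. Its gd6.5 against virgin difference was called with no filter (-2.84), DESeq2 (-2.95) and limma voom (-3.23), and lay between -4.42 and -2.23 when single libraries were left out. For gd8.5 against gd6.5 it was called with no filter (2.14) and DESeq2 (2.18), for trNK-D against trNK-V with no filter (1.53) and DESeq2 (1.41), for iSTAT3 against IL-21 with no filter (1.86) and DESeq2 (1.82), with 1.23 to 2.92 when libraries were left out, and for iSTAT3 against none with no filter (1.43). With no filter Ly6a was also called at gd6.5 against virgin (-3.68, edgeR adjusted p = 1.802e-26) and at gd8.5 against virgin (-3.95, edgeR adjusted p = 1.772e-29), though the libraries overlapped. The call of Ly6e with IL-21 at 72 h was lost with only the 72 h groups in the fit (1.28). The gd6.5 against virgin difference of Ly6e, with the same sign throughout, ran from -1.14 to -0.78 over left-out libraries. Its excess at 72 h over 6 h passed with DESeq2 (1.01) and limma voom (1.04) and ran from 0.78 to 1.33 over left-out libraries. For Ly6a, limma voom gave 11.44 at 72 h, and leaving out libraries gave -0.0799 to 1.80 at 0 h, 6.27 to 7.72 at 6 h, 7.38 to 9.14 at 24 h and 6.36 to 7.62 at 72 h. Leaving out replicate 1 at 72 h without IL-21 left a control with no count and gave no fold.

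Small uncalled differences changed sign. Ly6e in trNK-T against trNK-V became 0.0428 under edgeR's filter and 0.0306 with no filter, and in iSTAT3 against none 0.003007 under edgeR's filter. Over left-out libraries, trNK-T against trNK-V ran from -0.47 to 3.81 for Ly6a and from -0.26 to 1.16 for Ly6c2, trNK-D against trNK-V from -0.00842 to 0.20 for Ly6e, IL-21 in the 3-day culture from -1.54 to 0.19 for Ly6c2, and iSTAT3 against none from -0.26 to 0.21 for Ly6e. The cause of these shifts was not tested.

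Whether same-numbered libraries belong together is not known. Correlations of same-numbered deviations ran from -0.29 to 0.10 in gestation and 0.01 to 0.40 in the subsets. They ran from -0.51 to 0.60 in the 3-day culture and -0.39 to 0.48 in the time course. With 2 libraries a group these values cannot show whether the numbers mark pairs. With the replicate number as a block, 27 of 27 tested differences of the members kept their call, while called genes went from 278 to 2 at gd6.5 against virgin and from 82 to 151 in trNK-T against trNK-D.

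Counts of called genes moved by more than 1.5 times in every comparison, most often upward with no filter. Over the block, the other scaling, filters and tools and the fit of only the groups compared, the range was 0 to 919 around 278 at gd6.5 against virgin, 0 to 502 around 19 at gd8.5 against virgin, 0 to 452 around 0 at gd8.5 against gd6.5, 1 to 471 around 15 in trNK-D against trNK-V, 968 to 2022 around 991 in trNK-T against trNK-V and 11 to 587 around 82 in trNK-T against trNK-D. It was 0 to 162 around 12 for IL-21 in the 3-day culture, 1 to 461 around 123 for iSTAT3 against IL-21 and 21 to 653 around 197 against none. In the time course it was 0 to 3 around 0 at 0 h, 10 to 244 around 69 at 6 h, 1 to 367 around 58 at 24 h, 0 to 1518 around 283 at 72 h, 275 to 2295 around 883 for 72 h against 0 h and 54 to 873 around 146 for the excess at 72 h. Where edgeR called 0 at gd6.5 against virgin and at 72 h, with only those groups, 1148 and 206 genes had an unadjusted p under 0.05, and DESeq2 over all groups called 462 and 475.

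In single cells, limits on genes in place of UMIs gave ratios of 61.1 for Ly6a in macrophage-like over trNK-like cells, 11.4 for Ly6c2 in cNK-like over trNK-like cells and 2.35 for Ly6e in trNK-like over cNK-like cells. With no upper UMI limit they were 94.1 for Ly6a and 2.26 for Ly6e, and a coarser clustering gave 2.54 for Ly6e, against 42.9, 13.7 and 2.87 as first computed. Of the levels in named classes, 14 of 32 moved beyond their counting interval with limits on genes, 16 of 32 with no upper UMI limit and 3 of 32 with the coarser clustering. The Ly6a and Ly6c2 ratios have a denominator that could not be told from the erythroid-like level. Single-cell shares near the erythroid-like level cannot separate low expression from free RNA at this depth.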
